A study of Mus musculus with 10 samples.

Results

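Cytochrome P450 genes encode heme enzymes that add oxygen to small molecules, and here they were taken from the gene table as the protein-coding genes whose symbol is Cyp, a family number, a subfamily letter and a member number. That pattern gave 98 genes of the 54446 in the table. By family they were 60 genes of the Cyp1, Cyp2 and Cyp3 families, which handle drugs and other foreign compounds, 20 of the fatty acid family Cyp4, 3 of the retinoid family Cyp26, 2 of the sterol family Cyp27, and 13 of other families. Cyp51, the sterol demethylase of cholesterol synthesis, carries no subfamily letter and was reported apart.

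The expression of these genes was measured by CEL-Seq, which sequences the 3′ ends of polyadenylated transcripts, in RNA of whole esophagus of wild-type C57BL/6 mice. Mice had gone through a model of eosinophilic esophagitis made with the hapten oxazolone (OXA; libraries C1, D1, D2, D3 and D4) or had received vehicle (libraries A1 to A5). The title of the series concerns IL-13 acting on epithelial cells by way of the type II IL-4 receptor, but all 10 libraries came from wild-type mice. The sources used here give neither the meaning of the library letters nor the age of the mice, and the letters cannot be told apart from the treatment.

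P450 enzymes of the endoplasmic reticulum take their electrons from P450 oxidoreductase (Por), while those of mitochondria take them from adrenodoxin (Fdx1). Products differ by family: Cyp1 to Cyp3 enzymes make foreign compounds more water soluble or, at times, more reactive, Cyp4 enzymes hydroxylate the end of fatty acid and eicosanoid chains, Cyp26 enzymes break down retinoic acid, and Cyp27, Cyp7 and Cyp39 enzymes hydroxylate sterols. Liver holds most of them, and epithelia at the border to the outside hold sets of their own.

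Each library held 3675479 to 8364227 reads in OXA and 5094159 to 12108822 reads in vehicle, so that 3 reads, the number a count of 0 allows, were worth 3.50 normalized counts in OXA and 2.82 in vehicle on average. Over the 14712 genes tested below, Spearman correlations were 0.928 to 0.968 among OXA libraries, 0.961 to 0.982 among vehicle libraries and 0.860 to 0.923 between the groups. No pair of libraries was identical. Genes with a mean of at least 5 normalized counts were tested on log2(value + 1), and 2309 of 14712 tested genes were higher and 2085 were lower in OXA at an adjusted p under 0.05. Scaling to library totals moved the median log2 fold change of all genes from -0.01 to 0.11 and gave 2915 higher and 1545 lower genes, or 65.4% higher instead of 52.5%. Differentiated squamous epithelium was represented by Krt4, Krt13, Krt78, Krtdap and Sbsn, whose sum ran from 199857 to 517276 in OXA and from 585762 to 1002330 in vehicle, with 4 of 5 lower and Rhcg at 0 throughout. Macrophage markers rose in 7 of 7 cases and T cell markers in 6 of 7. In bulk tissue, fewer cells of a type and less RNA per cell cannot be told apart.

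Of the 98 P450 genes, 40 had no read in any library, 25 had a mean above 0 and under 1 normalized count, 7 had a mean of 1 to 5, and 26 were tested. Among the 26 tested, 5 were higher and 10 were lower in OXA, beside 15.7% of all tested genes higher and 14.2% lower, and 29.9% called either way. The groups did not overlap for 14 of the 26, with OXA above in 4 (12.0% of all tested genes) and OXA below in 10 (10.4%). The median log2 fold change of the 26 was -0.57, against -0.01 for all tested genes. Cyp2a5 was the only one of the 26 with a group mean under 5, and it passed through its vehicle values.

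**Figure D1:**
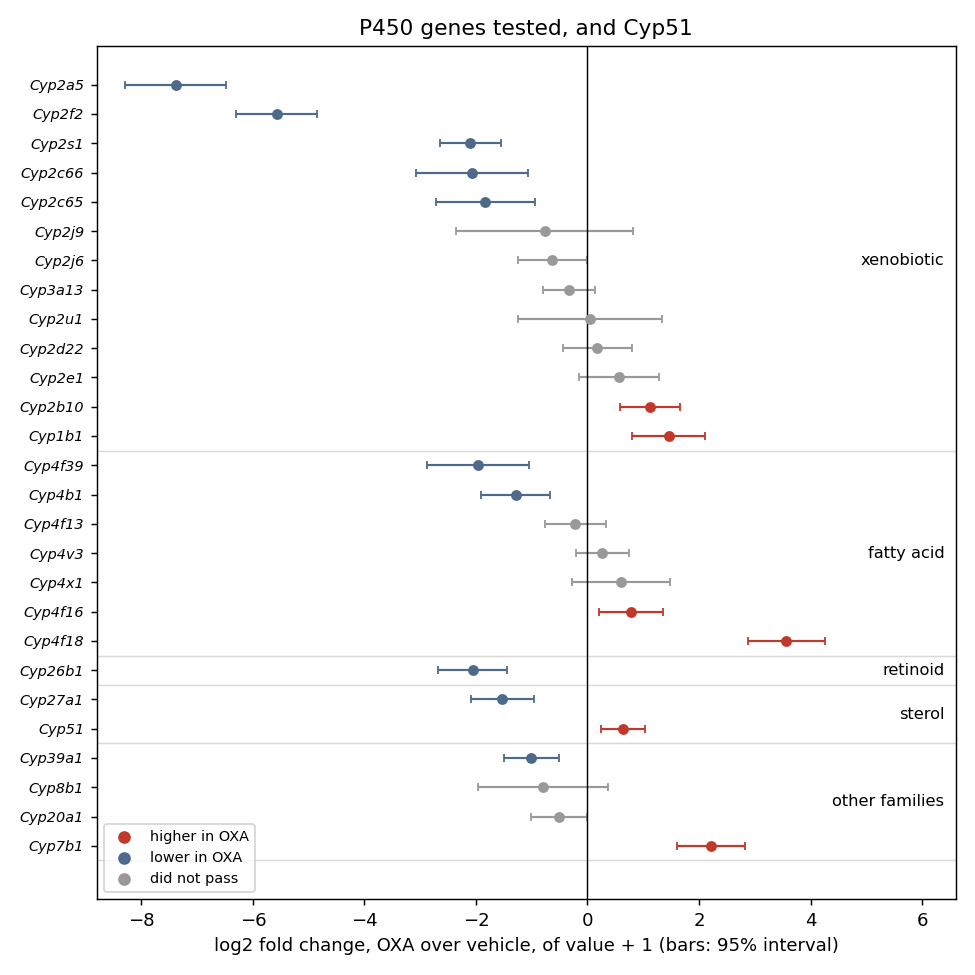
Log2 fold change of each tested P450 gene and of Cyp51, OXA over vehicle, on log2(normalized counts + 1), with 95% intervals from limma (5 libraries per group), grouped by family. Cyp2a5 and Cyp2f2 lie at -7.39 and -5.58, and Cyp4f18 at 3.57.

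The P450 transcripts of the vehicle esophagus were mostly those of 1 gene. Reads assigned to the 98 genes summed to 2171 ± 452 normalized counts in OXA and 20427 ± 4626 in vehicle (SD, n = 5 each), or 0.0352% of all reads in OXA and 0.302% in vehicle. Cyp2f2 took 17.9% ± 6.89 of these reads in OXA and 85.2% ± 2.17 in vehicle. Without Cyp2f2, the sum was 1760 ± 230 in OXA and 2952 ± 278 in vehicle. By family, the Cyp4 sum was 352 ± 46.5 in OXA and 349 ± 20.4 in vehicle, while its genes moved in both directions. After Cyp2f2, the highest means were those of Cyp3a13, Cyp2b10, Cyp2s1 and Cyp2d22 in OXA, and of Cyp2s1, Cyp2a5, Cyp27a1 and Cyp3a13 in vehicle. These are counts of transcript ends, not values per transcript length.

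**Figure D2:**
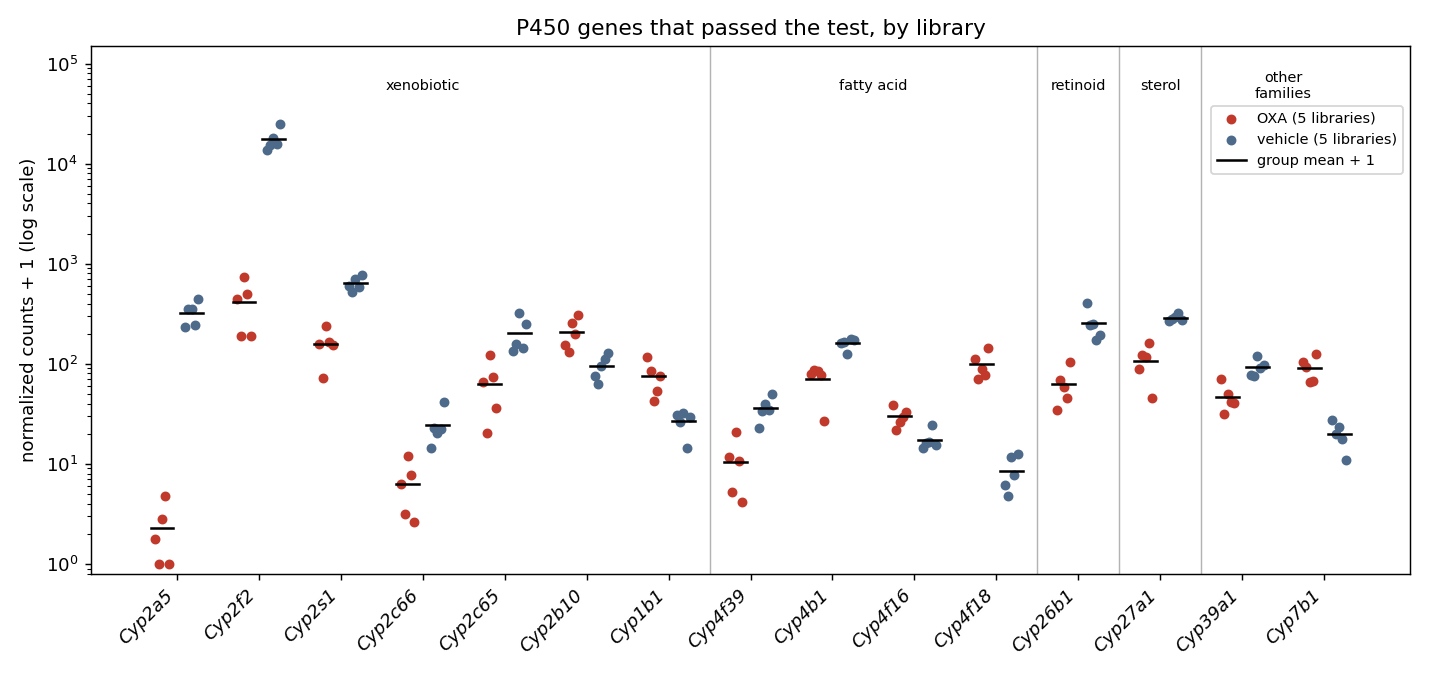
Normalized counts + 1 on a log axis for the 15 P450 genes that passed the test, 1 point per library, OXA left and vehicle right of each gene, with a line at the group mean. The groups overlap only for Cyp4f16, where vehicle library A4 (23.4) lies above OXA library D1 (20.6).

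Among the Cyp1 to Cyp3 genes, 2 rose and 5 fell of 13 tested, beside 15.7% and 14.2% of all tested genes. The falls included the deepest of the family. Cyp2f2 (ENSMUSG00000052974, chromosome 7:27119909-27133960, plus strand, GRCm38) is the mouse enzyme known for activating naphthalene in the club cells of the airway. Its normalized counts were 442, 190.5, 735, 501 and 187 in OXA libraries C1 and D1 to D4, against 13570.3, 15187, 17989, 15769 and 24860.0 in vehicle libraries A1 to A5. Every OXA library was far below every vehicle library, and the means of 411 ± 231 in OXA and 17475 ± 4421 in vehicle differed 42.5-fold. The log2 fold change was -5.58 ± 0.34 (SE; limma, Benjamini-Hochberg adjusted p = 1.40e-07).

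Cyp2a5 (chromosome 7:26835305-26843848, plus strand), the mouse coumarin hydroxylase, which also oxidises nicotine, was close to 0 in OXA. It had 0.76, 0, 1.81, 3.83 and 0 normalized counts in OXA, against 230.1, 355, 354, 241 and 442 in vehicle. OXA values were at or near the level that a count of 0 allows, and no vehicle library was below 230. Its log2 fold change was -7.39 ± 0.42 (limma, adjusted p = 7.66e-08). Cyp2a5 reached the filter only through its vehicle values, so this p-value is no separate support for a fall. With OXA values this low the size depends on the setting, from -8.05 with DESeq2 to -5.71 at a pseudocount of 5. The last 500 bases of its transcripts share a stretch of 290 bases at 96.6% identity with Cyp2a4, a steroid hydroxylase, which averaged 0.362 normalized counts in OXA and 0 in vehicle, so reads of the pair may be split between them.

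Cyp2s1 (chromosome 7:25802175-25816913, minus strand), an epithelial P450 that takes retinoic acid and lipid peroxides as substrates, had 156, 70.4, 237, 165 and 155 normalized counts in OXA, against 598, 522, 704, 586 and 776 in vehicle. The highest OXA library, D2, was less than the lowest vehicle library, A2. The log2 fold change was -2.10 ± 0.25 (limma, adjusted p = 4.14e-05).

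Cyp2c65 and Cyp2c66, neighbours on chromosome 19 (39061015-39094244 and 39113898-39187372, plus strand), belong to the arachidonic acid metabolising Cyp2c group and are known from mouse gut. Cyp2c65 had 64.1, 19.2, 121, 72.8 and 35.1 normalized counts in OXA, against 134, 157, 322, 141 and 250.4 in vehicle. Cyp2c66 was lower throughout, with 5.34, 2.13, 10.9, 6.70 and 1.60 in OXA, against 13.4, 21.8, 19.5, 21.3 and 40.1 in vehicle. Neither gene's groups overlapped, and D1 and D4 were the lowest OXA libraries for both. Their log2 fold changes were -1.83 ± 0.41 (limma, adjusted p = 0.00419) and -2.07 ± 0.47 (limma, adjusted p = 0.00457). The last 500 bases of Cyp2c66 are 97.4% identical to Cyp2c65, so the 2 genes cannot be counted as independent. Of the 15 Cyp2c genes, these were the only 2 with enough reads to test.

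Cyp1b1 and Cyp2b10 were the 2 genes of these families that rose. Cyp1b1 (chromosome 17:79706653-79715041, minus strand), a hydroxylase of estradiol and polycyclic hydrocarbons and a target of the aryl hydrocarbon receptor, had 116, 84.6, 41.6, 52.7 and 75.0 normalized counts in OXA, against 29.8, 25.5, 31.2, 13.5 and 28.6 in vehicle. Its lowest OXA library, D2, was above every vehicle library, and the log2 fold change was 1.45 ± 0.31 (limma, adjusted p = 0.00285). Cyp2b10 (chromosome 7:25897620-25926924, plus strand), the phenobarbital-inducible enzyme of mouse liver and a target of the receptor CAR, had 153, 129, 255, 199 and 303 normalized counts in OXA, against 74.0, 61.5, 94.5, 112 and 126 in vehicle. OXA libraries D2 and D4 were highest, the groups came close at D1 and A5 without overlapping, and the log2 fold change was 1.12 ± 0.25 (limma, adjusted p = 0.00445). Cyp1a1, the best known target of the aryl hydrocarbon receptor and named here after its values were seen, had no read in OXA and at most 2.25 normalized counts in a vehicle library.

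The 6 other tested genes of Cyp1 to Cyp3 did not pass, and the groups of each overlapped. Cyp3a13, of the drug-metabolising Cyp3a group, averaged 215 ± 73.75 normalized counts in OXA and 262 ± 44.4 in vehicle. Cyp2d22 averaged 107 ± 28.7 in OXA and 101 ± 48.6 in vehicle. Cyp2u1, a hydroxylase of long-chain fatty acids in humans, averaged 18.7 ± 11.6 in OXA and 14.8 ± 7.15 in vehicle. The arachidonic acid metabolising pair Cyp2j6 and Cyp2j9 gave intervals of log2 fold change of -1.25 to -0.02 and -2.35 to 0.82. Cyp2j6 averaged 43.3 ± 20.6 in OXA and 64.4 ± 15.2 in vehicle (limma, adjusted p = 0.113, and 0.0167 without OXA library D2). Cyp2j9 averaged 16.7 ± 9.61 in OXA and 19.6 ± 5.77 in vehicle.

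Cyp2e1, the ethanol and acetone oxidising P450, averaged 107 ± 70.6 normalized counts in OXA and 62.8 ± 11.6 in vehicle (limma, adjusted p = 0.222). Its OXA values were 81.7, 91.0, 228, 90.02 and 43.1, so the mean was carried by D2, and without D4 the adjusted p was 0.0479. Library D2 also had the largest sum of 8 adipocyte markers, 3527 normalized counts, beside 1807 to 2825 in the other OXA libraries and 1012 to 1577 in vehicle. The list did not move as a whole. Adipoq, Cidec, Lep, Fabp4, Cfd and Retn were highest in D2. Plin4 was lowest there (48.9), and Plin1 (19.9) was below D1 (28.4) and D3 (34.5). The part of that tissue in the Cyp2e1 value was not tested. The end of Cyp2e1 transcripts also holds a stretch shared with 33 other genes at 95.1% identity or more.

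Some of these falls and 1 of the rises lay side by side. The Cyp2 cluster of chromosome 7 (25802175-27158968) holds 13 of the 98 genes, of which 9 had a read and 4 were tested, with no other tested gene between them. In chromosomal order, Cyp2s1 fell, its neighbour Cyp2b10 rose, and Cyp2a5 and Cyp2f2 fell. Cyp2b19, which makes epoxides of arachidonic acid in mouse keratinocytes, lies between Cyp2b10 and Cyp2a5 and was under the filter. It had no read in any OXA library and 2.05, 10.5, 2.92, 4.67 and 11.4 normalized counts in vehicle, at least 1.80-fold lower in OXA when the OXA mean is set at its floor of 3.50. With genes of a mean of 1 or more tested, it passed (limma, adjusted p = 0.00142), as did Cyp2t4, next to Cyp2f2, with 1.07 ± 1.59 in OXA and 5.83 ± 2.45 in vehicle (limma, adjusted p = 0.0211), beside 23.9% of all genes so tested. Cyp2b19 reached that filter only through its vehicle values, so its p-value is no separate support for a fall. Cyp2t4 overlaps the end of Egln2 on the other strand, and Egln2 itself was lower in OXA at 179 ± 12.7, against 269 ± 19.9 in vehicle. The sources used here do not say whether reads were counted by strand.

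**Figure D3:**
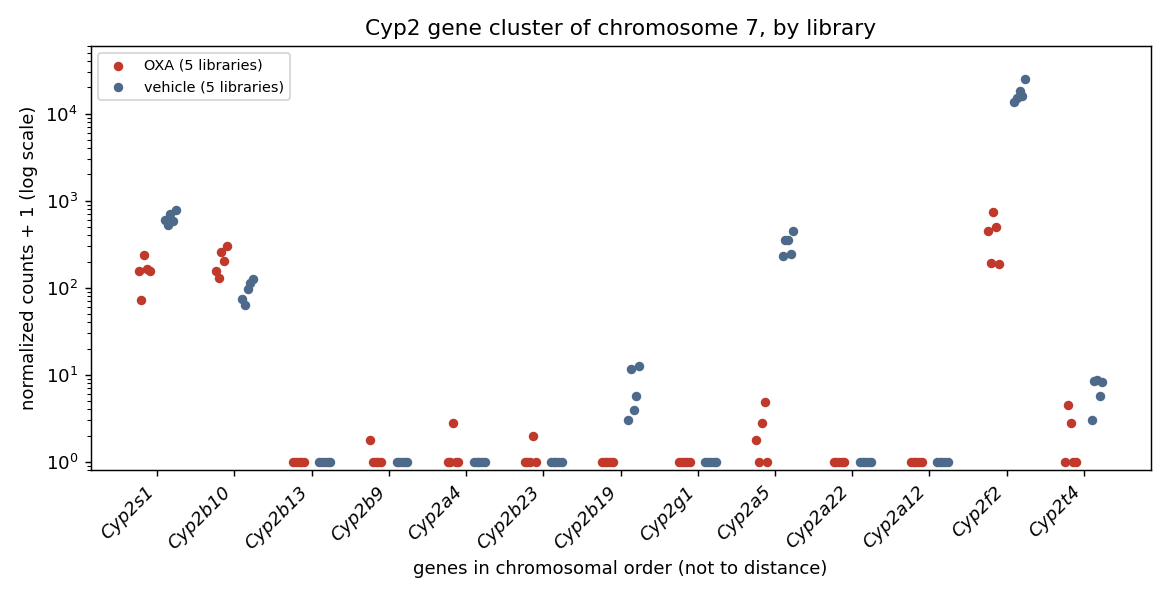
Normalized counts + 1 on a log axis for the 13 P450 genes of the chromosome 7 cluster in chromosomal order, 1 point per library, OXA left and vehicle right. Cyp2b10 lies higher in OXA (208 against 93.5 on average) between Cyp2s1 and the genes that were lower.

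The promoters of 3 genes of that cluster that moved in opposite directions, and of the 2 rising genes Cyp1b1 and Cyp4f18, are shown to set their sequence beside the response. Each is the 250 bases before the RefSeq start site (GRCm38.p6), 5′ to 3′ on the gene's strand. Capitals mark the core of the xenobiotic response element, to which the aryl hydrocarbon receptor binds (GCGTG, or CACGC on the other strand), and in Cyp4f18 the core of the antioxidant response element (TGACNNNGC on either strand).

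Cyp2f2 (chr7:27119705-27119954, plus strand): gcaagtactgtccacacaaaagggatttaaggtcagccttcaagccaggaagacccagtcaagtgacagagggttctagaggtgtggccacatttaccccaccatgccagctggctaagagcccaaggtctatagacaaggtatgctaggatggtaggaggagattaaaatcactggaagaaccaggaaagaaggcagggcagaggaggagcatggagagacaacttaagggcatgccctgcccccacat
Cyp2a5 (chr7:26835089-26835338, plus strand): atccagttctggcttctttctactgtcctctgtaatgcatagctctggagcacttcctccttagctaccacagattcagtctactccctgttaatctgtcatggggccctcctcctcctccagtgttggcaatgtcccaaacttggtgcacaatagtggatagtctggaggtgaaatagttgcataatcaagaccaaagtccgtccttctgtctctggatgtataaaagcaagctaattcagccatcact
Cyp2b10 (chr7:25897408-25897657, plus strand): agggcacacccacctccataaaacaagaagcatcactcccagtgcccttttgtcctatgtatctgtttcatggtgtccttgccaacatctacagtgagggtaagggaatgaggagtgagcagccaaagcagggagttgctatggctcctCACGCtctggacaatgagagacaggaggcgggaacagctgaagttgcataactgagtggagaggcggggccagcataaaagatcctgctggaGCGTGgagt
Cyp1b1 (chr17:79715062-79715311, minus strand): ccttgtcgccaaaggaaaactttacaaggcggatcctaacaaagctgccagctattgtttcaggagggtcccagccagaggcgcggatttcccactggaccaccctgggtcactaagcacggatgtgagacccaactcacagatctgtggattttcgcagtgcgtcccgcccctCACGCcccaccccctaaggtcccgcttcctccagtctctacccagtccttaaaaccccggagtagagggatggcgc
Cyp4f18 (chr8:72009627-72009876, minus strand): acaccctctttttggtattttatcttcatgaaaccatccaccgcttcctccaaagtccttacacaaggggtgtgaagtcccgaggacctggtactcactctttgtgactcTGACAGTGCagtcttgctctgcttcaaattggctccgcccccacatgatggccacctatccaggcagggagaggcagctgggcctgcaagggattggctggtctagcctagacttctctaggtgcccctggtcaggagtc

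The xenobiotic response element core was found in the promoters of 8 of 22 genes (21 of the 26 tested, and Cyp51), beside 28.2% of 32851 promoters of the same length. It was present in the rising genes Cyp1b1, Cyp2b10, Cyp4f16 and Cyp51, in the falling gene Cyp4f39, and in Cyp20a1, Cyp2j9 and Cyp4v3, which did not pass. The antioxidant response element core was found in 2 of the 22, Cyp4f18 and Cyp8b1, beside 10.2% of all promoters. A STAT6 site (TTC and GAA with any 4 bases between) was found in none, beside 5.85%, and an AP-1 site (TGANTCA) in 3, beside 6.75%. The AP-1 and antioxidant response letters can overlap each other, and no match says only that the letters are not in this window.

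In the Cyp4 family, 2 genes rose and 2 fell of 7 tested, beside 15.7% and 14.2% of all tested genes. Cyp4f18 (chromosome 8:71988182-72009626, minus strand), which inactivates leukotriene B4 in mouse neutrophils, had the largest rise of the 26. It had 111, 69.7, 86.9, 75.7 and 144 normalized counts in OXA, against 5.14, 3.75, 10.7, 6.75 and 11.4 in vehicle. Every OXA library was above every vehicle library, the means of 97.5 ± 30.4 in OXA and 7.56 ± 3.40 in vehicle differed 12.9-fold, and the log2 fold change was 3.57 ± 0.32 (limma, adjusted p = 4.35e-06). Beside it, 3 of 4 tested neutrophil markers rose, with a sum of 68.0 to 222 over the list in OXA and 40.0 to 57.0 in vehicle. Of the 3, Retnlg and Ltf reached the filter only through their OXA values, so their calls are no separate support for a rise. The fourth, Cxcr2, did not pass (27.6 ± 5.64 in OXA, 31.5 ± 6.80 in vehicle), and Ly6g, Mpo, Elane and Ngp were under the filter. Macrophage markers summed to 4436 to 8292 in OXA and 2065 to 3784 in vehicle, and 2 of 5 dendritic cell markers rose. Over all tested genes, 15.7% were higher in OXA. The part of these cells in the value was not tested. Its gene overlaps Zfp961 on the other strand, a zinc finger gene with 23.2 ± 12.2 in OXA and 28.4 ± 9.55 in vehicle (limma, adjusted p = 0.504).

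Cyp4f39 (chromosome 17:32468462-32492779, plus strand) hydroxylates the ultra-long fatty acids of the acylceramides that seal the epidermis, a role known from the human counterpart CYP4F22 and from mouse skin. It had 10.7, 4.26, 19.9, 9.58 and 3.19 normalized counts in OXA, against 21.6, 33.0, 38.98, 33.2 and 48.7 in vehicle. D2 came close to A1, but the groups did not overlap, and the log2 fold change was -1.97 ± 0.43 (limma, adjusted p = 0.00336). Among 11 genes of the acylceramide pathway, 5 fell and none rose at an adjusted p under 0.05, beside 14.2% and 15.7% of all tested genes. Pnpla1, which joins linoleate to the ceramide, averaged 126 ± 42.2 in OXA and 318 ± 55.1 in vehicle (log2 fold change -1.38, limma, adjusted p = 4.19e-04). The lipoxygenases Aloxe3 and Alox12b, which oxidise that linoleate, fell by 1.26 and 1.07 on the log2 scale, and the elongase Elovl1 fell by 0.65. The list's median log2 fold change was -0.40.

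Cyp4b1 (chromosome 4:115624425-115647723, minus strand), which hydroxylates fatty acids and activates furan toxins, had 78.6, 86.0, 83.3, 76.6 and 25.5 normalized counts in OXA, against 160.2, 165, 125, 178 and 170.3 in vehicle. The other OXA libraries lay close together and D4 was lower, with no overlap, and the log2 fold change was -1.28 ± 0.29 (limma, adjusted p = 0.00428). Cyp4f16 averaged 28.8 ± 6.38 in OXA and 16.3 ± 4.03 in vehicle (log2 fold change 0.78 ± 0.27, limma, adjusted p = 0.0420), with overlapping groups. That call was lost in 14 of 23 alternatives, with adjusted p from 0.027 to 0.138, among them each fit without C1, D3, D4, A1, A2, A3 or A5. Cyp4f13 (35.6 ± 10.2 in OXA, 41.4 ± 9.66 in vehicle), Cyp4v3 (99.0 ± 32.1 in OXA, 80.2 ± 13.1 in vehicle) and Cyp4x1 (10.7 ± 2.79 in OXA, 7.17 ± 3.56 in vehicle) did not pass. None of the 8 Cyp4a genes, the fatty acid hydroxylases that PPAR alpha drives in liver, had enough reads to test.

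For retinoids, Cyp26b1 (chromosome 6:84571114-84593908, minus strand) was the only one of the 3 Cyp26 genes with reads. It clears retinoic acid, and had 33.6, 67.5, 57.9, 44.0 and 104 normalized counts in OXA, against 406, 244, 248, 172 and 192 in vehicle. All OXA libraries were below all vehicle libraries, with C1 lowest and A1 highest, and the log2 fold change was -2.06 ± 0.29 (limma, adjusted p = 1.51e-04). Of 19 other tested genes of retinoid handling, 4 rose and 5 fell, beside 15.7% and 14.2% of all tested genes. The median log2 fold change of the 19 was -0.25. Aldh1a3, which makes retinoic acid from retinaldehyde, had 276, 227, 377, 149 and 208 in OXA, against 30.8, 21.8, 19.5, 21.3 and 17.2 in vehicle, a log2 fold change of 3.38 ± 0.24 (limma, adjusted p = 6.09e-07). Aldh1a1 and Aldh1a2, which make the same product and are named here after their values were seen, moved in opposite directions. Aldh1a1 averaged 439 ± 207 in OXA and 847 ± 41.8 in vehicle, a log2 fold change of -1.07 ± 0.25 (limma, adjusted p = 0.00534). Aldh1a2 averaged 181 ± 65.2 in OXA and 85.1 ± 21.8 in vehicle, a log2 fold change of 1.05 ± 0.26 (limma, adjusted p = 0.00716). Dhrs3, which turns retinaldehyde back to retinol, and Crabp2, which carries retinoic acid to its receptors, fell by 0.87 ± 0.16 and 0.95 ± 0.17 on the log2 scale.

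The sterol genes moved in both directions. Cyp27a1 (chromosome 1:74713574-74738192, plus strand), the mitochondrial sterol hydroxylase that makes oxysterols and bile acid precursors, had 88.5, 121, 116, 162 and 44.7 normalized counts in OXA, against 265, 277, 290.4, 317 and 272 in vehicle. D4 was lowest and no OXA library reached the vehicle values, and the log2 fold change was -1.53 ± 0.27 (limma, adjusted p = 7.25e-04). Cyp39a1 (chromosome 17:43667425-43751731, plus strand), an oxysterol hydroxylase of bile acid synthesis, had 68.7, 30.6, 48.9, 40.2 and 39.9 in OXA, against 76.0, 74.2, 119, 89.3 and 97.3 in vehicle. C1 came close to the lowest vehicle libraries without overlap, and the log2 fold change was -1.01 ± 0.23 (limma, adjusted p = 0.00453).

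Cyp7b1 (chromosome 3:18071650-18243338, minus strand), which hydroxylates oxysterols to ligands of the immune cell receptor Gpr183 and to bile acid precursors, rose. It had 103, 91.7, 65.2, 66.1 and 123 normalized counts in OXA, against 26.7, 18.8, 22.4, 16.6 and 10.02 in vehicle. The lowest OXA library was above the highest vehicle library, and the log2 fold change was 2.21 ± 0.28 (limma, adjusted p = 6.82e-05). Of 8 tested genes that handle oxysterols and vitamin D, 4 rose and 1 fell, beside 15.7% and 14.2% of all tested genes. Gpr183 averaged 33.8 ± 15.7 in OXA and 8.40 ± 5.49 in vehicle (log2 fold change 2.01, limma, adjusted p = 0.00548), and Soat1, which stores cholesterol as ester, 99.35 ± 18.1 in OXA and 30.4 ± 11.6 in vehicle (1.79, limma, adjusted p = 9.21e-04). Abcg1, a sterol exporter, rose by 1.04, and Nr1h2, the oxysterol receptor LXR beta, fell by 1.05 on the log2 scale. T cell markers summed to 368 to 409 in OXA and 38.6 to 117 in vehicle, and their part in these values was not tested.

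Cyp51 had 1328, 1196, 2010, 1983 and 1823 normalized counts in OXA, against 898, 847, 1336, 1113 and 1140.4 in vehicle. It rose by 0.63 ± 0.18 on the log2 scale (limma, adjusted p = 0.0178) with overlap at D1, C1 and A3, and without A5, D2 and D4 together the adjusted p was 0.086. Of 22 other genes of cholesterol synthesis and uptake, 2 rose and 8 fell, beside 15.7% and 14.2% of all tested genes. Tm7sf2, Fdps, Dhcr7 and Sc5d, all enzymes of the same route, fell by 1.57, 0.98, 0.83 and 0.50 on the log2 scale. Cyp8b1, a bile acid hydroxylase, averaged 10.4 ± 6.95 in OXA and 16.6 ± 7.69 in vehicle, and Cyp20a1, an orphan P450, 59.8 ± 15.0 in OXA and 84.2 ± 18.9 in vehicle (limma, adjusted p = 0.119). Neither passed.

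Of the partners of P450 enzymes, 2 of 10 tested redox genes rose and 3 fell, and 1 of 13 heme genes rose and 3 fell. Across all tested genes, 15.7% were higher and 14.2% lower, or 29.9% either way. Por had 676, 527, 938, 539 and 624 normalized counts in OXA, against 1325, 1369, 1633, 1367 and 1930.2 in vehicle, a log2 fold change of -1.22 ± 0.17 (limma, adjusted p = 1.47e-04). Fdx1 had 256, 209, 273, 242 and 265 in OXA, against 553, 540.0, 767, 601 and 828 in vehicle, a log2 fold change of -1.38 ± 0.15 (limma, adjusted p = 1.98e-05). All OXA libraries were below all vehicle libraries for both. Pgrmc1, a heme-binding partner, fell by 0.81, while the cytochrome b5 gene Cyb5b and the cytochrome b5 reductase gene Cyb5r4 rose by 0.60 and 0.92 on the log2 scale. Cyb5a, Cyb5r1, Cyb5r3, Pgrmc2 and Fdxr, the reductase that serves Fdx1, did not pass, with log2 fold changes from -0.40 to 0.00. Among the heme genes, Alad, a synthesis enzyme, fell by 1.49, Hmox1, which breaks heme down, fell by 0.73, and Alas2, the erythroid synthase, rose by 1.14. Fech, which inserts the iron, fell by 0.47, a call lost in 8 of 23 alternatives, including the fits without C1, D2, A1 or A5.

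Of the receptors that drive these genes in other tissues, 8 were tested, 1 rose and 1 fell, beside 15.7% and 14.2% of all tested genes. Ahr, the aryl hydrocarbon receptor, averaged 46.8 ± 13.1 in OXA and 94.4 ± 17.7 in vehicle (log2 fold change -1.02, limma, adjusted p = 0.00282). Keap1, the inhibitor of NRF2, rose by 0.71, and Nfe2l2, the gene of NRF2, averaged 1595 ± 497 in OXA and 1988 ± 257 in vehicle without passing. Nr1i2 and Hnf4a, both drivers of P450 genes in liver, had no read. Nr1i3, the gene of CAR, named here after its values were seen, was under the filter at 0.96 ± 0.655 in OXA and 0.286 ± 0.64 in vehicle. Ppara did not pass (5.68 ± 6.79 in OXA, 14.1 ± 3.27 in vehicle). Of 5 tested targets of the aryl hydrocarbon receptor outside the family, 2 fell, beside 14.2% of all tested genes. The other 3 did not pass, and Ahrr, Ugt1a6a and Ugt1a7c were under the filter. Among the 3, Tiparp averaged 208 ± 79.6 in OXA and 157 ± 23.8 in vehicle (log2 fold change 0.33, limma, adjusted p = 0.298). Aldh3a1, an aldehyde dehydrogenase, averaged 126 ± 75.7 in OXA and 21622 ± 6393 in vehicle (log2 fold change -7.60, limma, adjusted p = 2.06e-08), and the quinone reductase Nqo1 47.9 ± 15.5 in OXA and 232 ± 68.4 in vehicle (-2.27, limma, adjusted p = 2.05e-05). Ephx1, the epoxide hydrolase that acts after P450 enzymes, fell by 1.002, and Ephx2, Ephx3 and Ephx4 did not pass. Tbxas1, the thromboxane synthase, a P450 under another symbol, averaged 90.8 ± 23.3 in OXA and 24.1 ± 5.54 in vehicle (log2 fold change 1.86, limma, adjusted p = 8.62e-05), and the prostacyclin synthase Ptgis 173 ± 24.8 in OXA and 159 ± 31.0 in vehicle without passing.

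**Figure D4:**
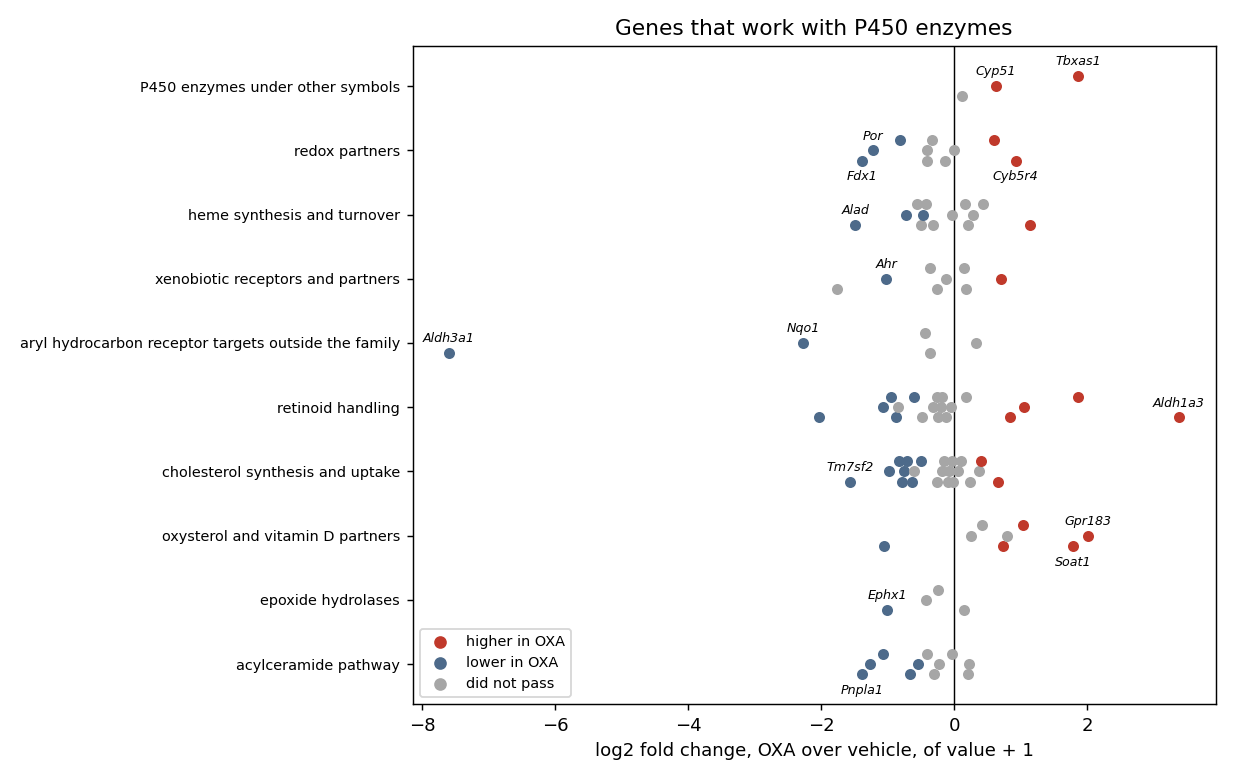
Log2 fold change, OXA over vehicle, of 100 tested genes in 10 lists of partners, pathway neighbours and receptors of P450 enzymes, 1 point per gene and list, coloured by the limma call. Of them 16 were higher (15.7% of all tested genes) and 29 lower (14.2%), with Aldh3a1 at -7.60 and Aldh1a3 at 3.38.

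Lists of other tissues were set beside the values. Hepatocyte markers were all under the filter, at sums of 0 to 17.6 normalized counts in OXA and 0 to 13.4 in vehicle, with Serpina1a at 0, and thyroid markers summed to at most 12.4 in OXA and 4.29 in vehicle. Airway epithelium markers summed to 2.13 to 95.8 in OXA and 34.8 to 76.0 in vehicle, and Scgb1a1, the club cell secretoglobin, had 8.40, 2.13, 5.43, 43.1 and 0 in OXA, against 39.03, 33.8, 41.9, 30.1 and 64.4 in vehicle. The part of airway tissue in the Cyp2f2 values was not tested. The falls of Cyp2f2, Cyp2a5 and Cyp2s1 ran beside the lower sum of squamous markers given above. That sum averaged 330304 in OXA and 738854 in vehicle. Most of it was Krt4 and Krt13, and Krt13 did not pass (limma, adjusted p = 0.215). Of 7 basal epithelium markers, 2 rose and 2 fell, beside 15.7% and 14.2% of all tested genes. Their sum was 32293 ± 9143 in OXA and 32065 ± 4507 in vehicle. The part of either layer in the 3 falls was not tested.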

How the data were processed

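RNA of whole esophagus from 5 OXA and 5 vehicle libraries was measured by CEL-Seq, per the labels' protocols. The deposited table holds a signal per gene: reads divided by a library size factor by the authors, rounded, as its values show, since all values (100%, tolerance 0.006) come out as whole reads. The submitters' processing notes name HTSeq 0.11.2 and TopHat2 2.1.0 with Bowtie2 2.2.6, DESeq2 1.18.1, quality and trimming tools (FastQC, cutadapt, Trim Galore) and the build GRCm38. Coordinates are those of the table, which extend the 3′ end of 90.3% of protein-coding genes by 300 bases beyond GENCODE M21.

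Genes whose 10 libraries averaged 5 or more were tested as log2(value + 1) with limma 3.58.1 (trend; 2-group design, no block; R 4.3.3), Benjamini-Hochberg adjusted over all tested genes, at 0.05. Fold changes understate those of low genes. edgeR 4.0.16 and DESeq2 1.42.0 on the recovered reads were alternatives, with other pseudocounts (0.5 and 5), filters (1 and 20), scalings and left-out libraries. Every tested P450 gene was named, and from each companion list up to 4 genes with the smallest p, of which 1 is not reported here. Members and lists were chosen with earlier results of these data known. Transcript ends were compared with blastn 2.17.0, and 75 of the 98 genes had a RefSeq promoter. The labels do not say that each library is 1 mouse, so p-values measure the spread between libraries. The depth of each library sets the floor of 3 reads, which covers counting error only. Same-numbered titles did not pair libraries, and could not fully, since C1 and D1 share a number and no OXA library has that of A5.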

Additional observations from a re-analysis of the deposited data

Results flagged for a closer look

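Of 52 groups of 5 libraries examined, the values of 1 library stood apart from the others in 6, where chance gives about 1 in 20. Library D4 of the OXA group had 25.5 normalized counts of Cyp4b1, against 76.6 to 86.0 in the other OXA libraries. It also had 0 of Cyp2j9, against 16.8 to 22.8, and 33.5 of Cyp20a1, against 62.2 to 69.0. OXA library D2 had 228 of Cyp2e1, against 43.1 to 91.0. In vehicle, A4 had 23.4 of Cyp4f16, against 13.4 to 15.6, and A5 had 57.2 of Cyp4v3, against 83.6 to 90.4.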

How the results depend on the processing

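Of the 15 called P450 genes, 14 kept call and direction in each of the 23 alternatives that tested them, Cyp4f16 being the exception, and Cyp2c66 was not tested at a filter of 20. The number of Cyp4 genes called higher was 1 instead of 2 at a filter of 1, with no filter, with quantile normalization, with edgeR, without A5, D2 and D4 together, and with the replicate block in limma and in edgeR; leaving out 1 library gave 1 to 2. The replicate numbers of the titles did not pair libraries: correlations of deviations ran from -0.234 to 0.19, and 0 of 5 OXA libraries matched their own number best. The numbers could not define full pairs, since C1 and D1 share the number of A1 and no OXA library has that of A5. The replicate block therefore held C1, D1 and A1 together and left A5 alone. The replicate block called 1853 higher and 1490 lower genes in limma, and 1772 and 1377 in edgeR, against 2309 and 2085 without it. Without the block, edgeR called 2411 higher and 1972 lower, and DESeq2 2627 and 2249. Leaving out 1 library gave 1904 to 2364 genes higher and 1688 to 2196 lower, 4 to 5 P450 genes higher and 10 to 11 lower, 2 to 3 and 5 to 6 of Cyp1 to Cyp3, 0 and 1 of Cyp26 and of Cyp27, and 13 to 17 companion genes higher and 26 to 34 lower. Of the genes named, the block lost Cyp4f16, Fech and Elovl1 in both tools and gained Ppara in limma (adjusted p = 0.046). Companion genes that did not pass but did so elsewhere, all lower in OXA, were Nfe2l2 without D4 (0.0474) and without A5, D2 and D4 (0.00781), Ephx3 without D2 (0.0457), and Ppara at a pseudocount of 5 (0.0435), with quantile normalization (0.0205) and without D3 (0.0104).

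Signs turned for genes that did not pass, and the cause was not tested. With 1 library left out, log2 fold changes ran from -0.20 to 0.65 for Cyp2u1, -1.02 to 0.12 for Cyp2j9, -0.049 to 0.42 for Cyp2d22, -0.024 to 0.22 for Ephx2 and -0.12 to 0.37 for Fdxr. Quantile normalization gave -0.036 for Cyp2u1 and -0.11 for Fdxr, and a pseudocount of 0.5 gave -0.0096 for Fdxr. Without A5, D2 and D4, Cyp2j9 gave 0.035, Cyp4f13 0.10 and Cyb5r3 0.026. The replicate block in limma and in edgeR gave -0.27 and -0.029 for Cyp2u1, -0.12 and -0.12 for Cyp2d22, and -0.14 and -0.085 for Fdxr. Depth limits the 32 P450 genes with reads under the filter.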

Other observations

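Below the filter, 7 P450 genes had a mean of at least 1 normalized count. Besides Cyp2b19 and Cyp2t4, they were Cyp2c23, an epoxygenase of arachidonic acid in mouse kidney (4.29 ± 5.59 in OXA, 4.48 ± 2.67 in vehicle), Cyp2c29 (1.34 ± 1.55 in OXA, 2.86 ± 1.73 in vehicle), Cyp27b1, which activates vitamin D (3.73 ± 5.31 in OXA, 1.24 ± 1.84 in vehicle), Cyp2r1, the vitamin D hydroxylase before it (2.79 ± 3.32 in OXA, 2.11 ± 1.37 in vehicle), and Cyp46a1, the cholesterol hydroxylase of neurons (0.906 ± 1.66 in OXA, 1.24 ± 1.84 in vehicle). None of these 5 passed at a filter of 1 (limma, adjusted p from 0.333 to 0.969). Among genes named after their values were seen, Cyp24a1, which inactivates vitamin D, and Cyp26a1 and Cyp26c1 had no read in any library.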
